A study of Rattus norvegicus with 78 samples.

Results

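Hippocampal (HIP) arrays with high Arc were set against those with low Arc. In each of the 4 groups of arrays, defined by rat line and cohort, the arrays were ranked by the intensity of the single probeset for Arc, and the third with the most Arc was compared with the third with the least, rounded down. This gave 12 high Arc and 12 low Arc arrays, 24 of the 39 HIP arrays and of the 78 arrays in the series. The 15 arrays in between were left out of the contrast and used separately. The Arc probeset chose the arrays, so its values are a description, and it was left out of every test. All other probesets were read from the same RNA on the same array as Arc.

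The study compared adult male rats of the Flinders Sensitive Line (FSL), a selectively bred model of depression, with the Flinders Resistant Line (FRL), its control line. No drug or transgene was used. Every rat had passed through the forced swim test a week before the tissue was taken, and HIP came from the right hemisphere. Cohorts 1 and 2 were separate sets of animals. FRL had 12 HIP arrays in cohort 1, of which 4 were high and 4 low, and 10 in cohort 2, with 3 and 3. FSL had 9 in cohort 1, with 3 and 3, and 8 in cohort 2, with 2 and 2. Each array was 1 labelled biological replicate. Labelling was done in batches that the labels do not give, so that batch could not be fitted.

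Arc is an immediate early gene. Its transcript is made within minutes of synaptic activity through CREB, SRF and MEF2 at its regulatory regions, and its protein promotes the removal of AMPA receptors from synapses. Fos, Egr1 and Nr4a1 are transcription factors switched on by the same calcium and MAP kinase signals, and Homer1 has a short activity-induced form that competes with its long scaffolding forms. Dusp1 and Dusp6 are phosphatases that switch MAP kinases off again. In hippocampus these genes mark neurons that were active shortly before the tissue was taken.

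Markers of hippocampal cell types were detected in the HIP arrays. The markers named here also passed the filter in the frontal cortex arrays of the series, so that their detection alone does not identify the tissue. Mean intensity over the 39 HIP arrays was 406 ± 37.1 (SD) for Prox1, a marker of dentate granule cells, 624 ± 94.5 for Wfs1, which marks CA1, and 485 ± 44.9 for Bok, which marks CA3. Choroid plexus markers differed widely between arrays in both classes, with a summed intensity from 931 to 19956 in high Arc arrays and from 1073 to 19931 in low Arc arrays. In tissue of many cell types, fewer cells of a type and less RNA per cell cannot be told apart.

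Arc intensity was 309 to 639 in the high Arc arrays, with a median of 442, and 161 to 403 in the low Arc arrays, with a median of 283. The ranges overlap because the ranking was done within groups whose levels differed. Mean log2 Arc was higher in the high arrays by 0.64 in FRL cohort 1, 0.73 in FRL cohort 2, 0.78 in FSL cohort 1 and 0.72 in FSL cohort 2. Some of the cutoffs fell between arrays that were nearly alike. In FRL cohort 1 the last high array had 412 and the first middle array 406, while the first low array had 309 and the last middle array 331. In FRL cohort 2 these pairs were 587 and 480, and 403 and 447. In FSL cohort 1 they were 309 and 292, and 240 and 246. In FSL cohort 2 they were 347 and 335, and 260 and 307. The closest pair, in FSL cohort 1, separated a low from a middle array.

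**Figure D1:**
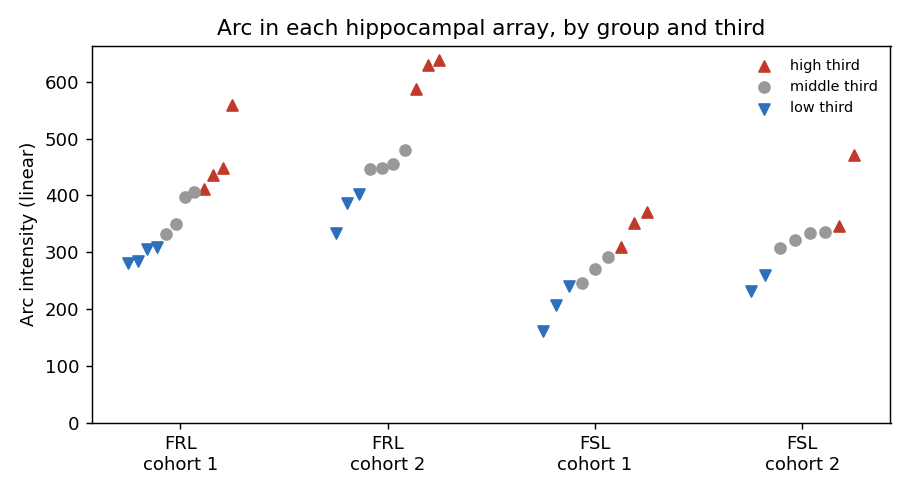
Arc intensity (linear scale) of each of the 39 hippocampal arrays in the 4 groups, with high, middle and low Arc arrays marked by colour and shape. Each group spans a range of its own, and the highest value, 639, is in FRL cohort 2 and the lowest, 161, in FSL cohort 1.

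Few transcripts differed with Arc, and most of those with a name were activity-induced genes. Of 21629 probesets tested with limma, 7 passed an adjusted p of 0.05, 0.0324% of the total, with 6 higher (0.0277%) and 1 lower (0.00462%) in high Arc arrays. The 6 were probesets for Homer1, Sik1, Fos, Nr4a1 and Egr1 and 1 probeset with no gene symbol, called here the unnamed higher probeset. The probeset that was lower has no symbol either and is called the unnamed lower probeset. At an unadjusted p of 0.05, 489 probesets were higher and 436 lower, 2.26% and 2.02% of those tested. Apart from Homer1 these calls lay close to the threshold. When each array was left out in turn the count ranged from 1 to 8, and the arrays concerned are given with the other dependences on processing.

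Homer1 encodes a postsynaptic scaffold that links metabotropic glutamate receptors to calcium stores. Of its 5 probesets the dimmest had intensities of 44.8 to 167 in the high Arc arrays, with a median of 65.2, and of 20.9 to 101 in the low Arc arrays, with a median of 33.1. In FRL cohort 1 the high arrays had 61.1, 47.0, 54.9 and 69.4 and the low arrays 38.0, 30.7, 23.6 and 20.9. All 4 high arrays of that group were above all 4 low arrays. In FRL cohort 2 the high arrays had 150.2, 167 and 151 and the low arrays 101, 56.2 and 79.3. In FSL cohort 1 the high arrays had 44.8, 73.2 and 51.4 and the low arrays 22.4, 32.6 and 29.7. In FSL cohort 2 the high arrays had 96.1 and 59.4 and the low arrays 33.6 and 39.6. The classes thus did not overlap within any of the 4 groups, although they did between groups. Such separation in all 4 groups was found for 3 probesets, 0.0139% of those tested, namely Homer1, Egr1 and a further probeset without a symbol. The Homer1 difference was 1.03 on the log2 scale (SE 0.12), a fold of 2.05, with a limma adjusted p of 2.19e-04. It was 1.06, 1.03, 0.99 and 1.05 in FRL cohort 1, FRL cohort 2, FSL cohort 1 and FSL cohort 2. This probeset was dim, and the low Arc arrays with 20.9, 23.6, 22.4 and 29.7 lay under the intensity filter of 30. With 16 added to the intensities before the logarithm, the Homer1 difference was smaller, at 0.78 (SE 0.09), with a limma adjusted p of 1.39e-04. The probeset passed the threshold in each of the 24 fits that left out 1 array. It did not pass when the top 50% of each group were set against the bottom 50%, where the difference was 0.66 (SE 0.14), with a limma adjusted p of 0.361.

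The other 4 Homer1 probesets had a higher mean intensity over the 39 arrays, and their differences were nearer to 0. In the high Arc arrays of FRL cohort 2 the dimmest exceeded the second dimmest, which had 85.8, 59.2 and 52.9. The brightest had medians of 522 in high and 535 in low Arc arrays, a log2 difference of 0.02 (SE 0.04). The differences were 0.15 (SE 0.09) for the second brightest, −0.02 (SE 0.06) for the middle one and 0.03 (SE 0.12) for the second dimmest. None of these passed the adjusted threshold in limma, and high and low arrays overlapped over most of their range. Averaged over the 5 probesets, Homer1 differed by 0.24 (SE 0.07), with an adjusted p of 0.713. Which transcript form each probeset reads is not given in the sources used here.

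**Figure D2:**
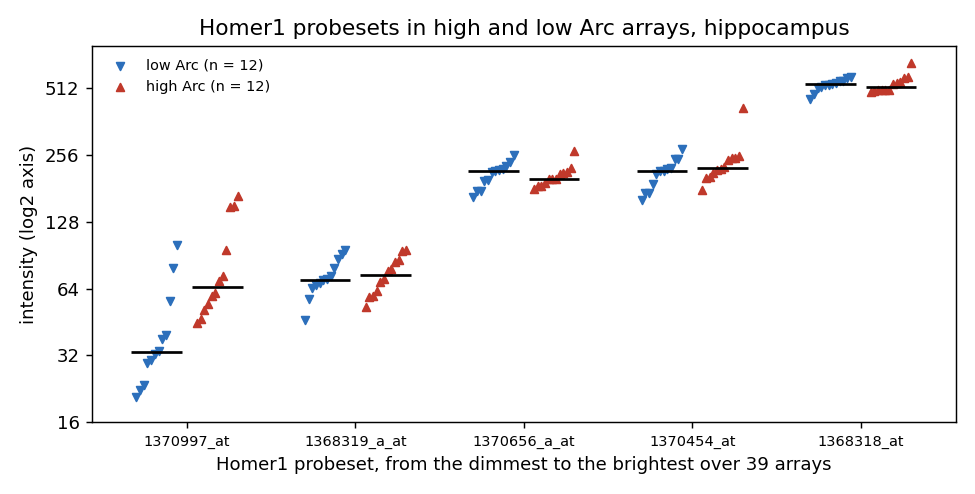
Intensity (log2 axis) of the 5 Homer1 probesets in the 12 high and 12 low Arc hippocampal arrays, with a line at each median. Only the dimmest probeset shows high Arc arrays shifted upwards, with medians of 65.2 and 33.1.

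The start regions of the named genes were read for sites of some of the factors that act on Arc. No MEF2 site was searched for. RefSeq promoters of assembly GRCr8 (300 bases from 250 upstream of the start) were matched for Homer1, Sik1, Nr4a1 and Egr1. No promoter was matched for Fos or for Arc itself. The motifs, searched on both strands, were the full cAMP response element TGACGTCA, its short core TGACG (which the full element contains), the CArG box bound by SRF, the AP-1 site TGANTCA and the Egr site GCGTGGGCG. The sequences of 3 of these genes are shown to set a promoter without any such motif beside promoters that hold several. They run 5′ to 3′ on the strand of the gene, with motif letters in capitals, so that a core on the reverse strand appears as CGTCA.
Homer1, chr2:26278762-26279061, plus strand: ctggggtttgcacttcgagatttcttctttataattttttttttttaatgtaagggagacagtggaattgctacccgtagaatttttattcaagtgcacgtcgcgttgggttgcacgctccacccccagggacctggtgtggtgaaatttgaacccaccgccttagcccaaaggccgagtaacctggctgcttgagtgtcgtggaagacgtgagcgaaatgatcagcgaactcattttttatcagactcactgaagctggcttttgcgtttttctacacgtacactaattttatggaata
Sik1, chr20:9958597-9958896, minus strand: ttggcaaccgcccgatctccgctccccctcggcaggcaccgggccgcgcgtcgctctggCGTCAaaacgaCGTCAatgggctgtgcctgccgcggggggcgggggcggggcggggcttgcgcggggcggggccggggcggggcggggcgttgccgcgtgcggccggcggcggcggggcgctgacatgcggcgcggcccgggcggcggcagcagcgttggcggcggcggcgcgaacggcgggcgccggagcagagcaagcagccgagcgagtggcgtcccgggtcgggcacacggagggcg
Nr4a1, chr7:134259888-134260187, plus strand: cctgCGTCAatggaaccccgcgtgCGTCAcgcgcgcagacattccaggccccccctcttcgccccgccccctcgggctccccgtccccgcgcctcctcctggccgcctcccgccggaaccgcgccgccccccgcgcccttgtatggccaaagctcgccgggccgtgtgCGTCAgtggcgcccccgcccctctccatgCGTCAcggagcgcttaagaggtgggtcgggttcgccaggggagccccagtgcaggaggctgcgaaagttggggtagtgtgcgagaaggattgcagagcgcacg
The Homer1 window held none of the motifs, that of Sik1 held 2 copies of the core and that of Nr4a1 held 4. The Egr1 window held 2 cores and 2 CArG boxes. The core was present in 3 of the 4 promoters, against 31.4% of the 9376 promoters of tested genes, and the CArG box in 1 of 4, against 1.38%. The full element was in 3.07% of all promoters, the AP-1 site in 4.90% and the Egr site in 1.08%, and each was in 0 of the 4. A second set is given by the 16 matched members of the activity-induced lists that were higher at an unadjusted p of 0.05. It shares Sik1, Nr4a1 and Egr1 with the first set, so the counts are not separate. Homer1 is not in it, because the lists use the brightest probeset of each gene. The core was in 11 of the 16, the full element in 3, the CArG box in 2, and the AP-1 and Egr sites in 0.

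Of the transcription factors of the early response, Fos, Nr4a1 and Egr1 were higher in high Arc arrays. Fos, which pairs with Jun proteins as AP-1, had intensities of 44.0 to 172 in high Arc arrays, with a median of 97.5, and of 18.2 to 103 in low Arc arrays, with a median of 39.4. The classes overlapped in 1 of the 4 groups, FRL cohort 1, where the high array of 44.4 lay below the low array of 57.0. The log2 difference was 1.12 (SE 0.19), a fold of 2.17, with a limma adjusted p of 0.0388. A further Fos probeset was below the intensity filter, with medians of 11.4 and 16.6.

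Nr4a1, an orphan nuclear receptor, had intensities of 232 to 514 in high Arc arrays, with a median of 343, and of 154 to 399 in low Arc arrays, with a median of 240.3. The classes were apart in 3 of the 4 groups and overlapped in FSL cohort 1, where the lowest high array had 232 and the highest low array 239.7. The log2 difference was 0.51 (SE 0.09), with an adjusted p of 0.0388. Egr1, a zinc finger factor that binds the promoters of Arc and other synaptic genes, had intensities of 712 to 1466 in high Arc arrays, with a median of 877, and of 528 to 980.5 in low Arc arrays, with a median of 681. High arrays lay above low arrays within all 4 groups. The log2 difference was 0.40 (SE 0.07), with an adjusted p of 0.0388. Without the array with 1466, replicate 2 of FSL cohort 2, the difference was 0.34 (SE 0.06).

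Sik1, a kinase that is induced by CREB and restrains CREB coactivators, had intensities of 67.5 to 135 in high Arc arrays, with a median of 85.6, and of 43.5 to 95.9 in low Arc arrays, with a median of 61.0. The classes were apart in 3 of the 4 groups and overlapped in FSL cohort 2. The log2 difference was 0.46 (SE 0.07), with a limma adjusted p of 0.0285. The other Sik1 probeset differed by 0.21 (SE 0.12) and did not pass.

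The unnamed probesets changed by about as much as Egr1, in opposite directions. The higher one had 109 to 224 in high Arc arrays and 89.6 to 139 in low Arc arrays, with medians of 149 and 114, and a log2 difference of 0.41 (SE 0.07). The lower one had 25.6 to 43.9 in high Arc arrays and 33.1 to 62.7 in low Arc arrays, with medians of 31.6 and 41.6, and a difference of −0.41 (SE 0.07). Each had an adjusted p of 0.0388. The lower probeset was dim, with high Arc arrays near the filter of 30, and its mean was lower in the high Arc arrays of all 4 groups.

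**Figure D3:**
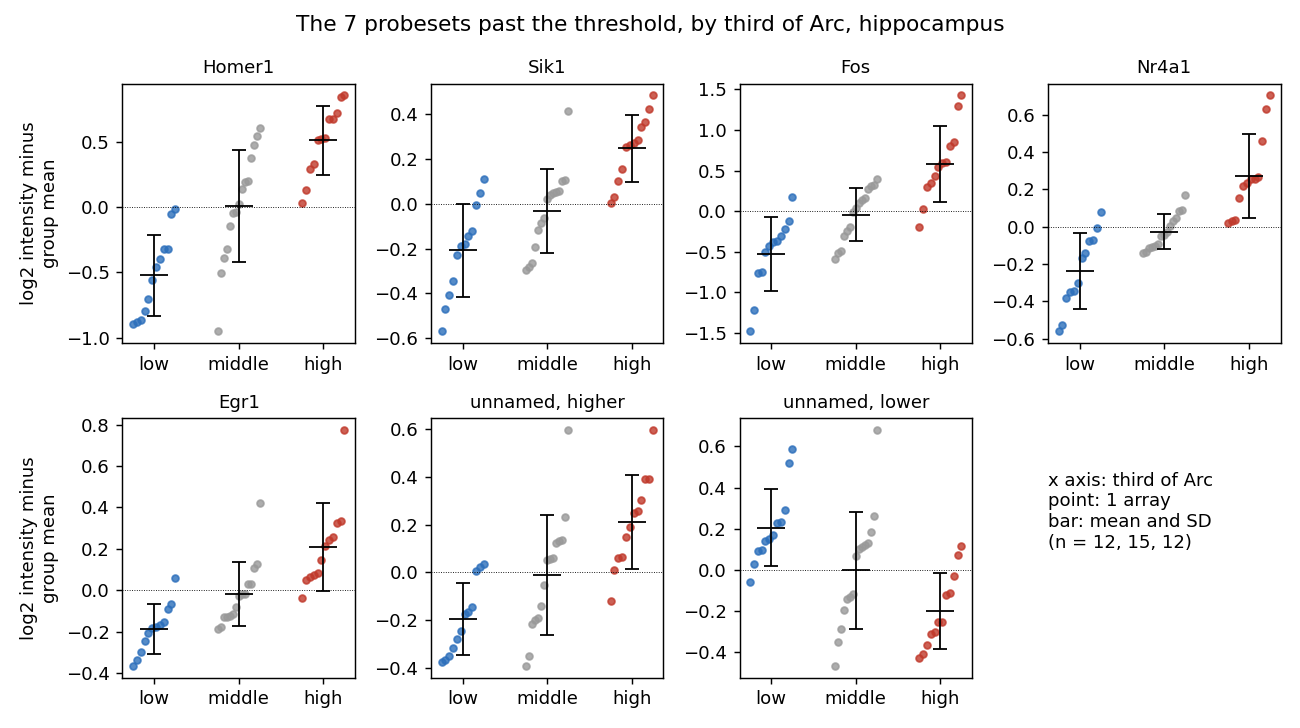
Log2 intensity of the 7 probesets that passed, after subtracting the mean of each line and cohort group, for the 12 low, 15 middle and 12 high Arc arrays (point, 1 array; bar, mean and SD). In each panel the middle arrays have a mean between the other classes, with single arrays far from it.

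The middle arrays, which the contrast did not use, lay between the classes on average for all 7 probesets. Of all tested probesets, 34.7% had a middle mean between the high and the low mean. The 7 were chosen for a wide gap between the classes, in which a middle mean falls more easily. The position of the middle arrays is therefore a description and not a test. For Homer1 the middle arrays were above the low arrays by 0.53 (SE 0.14) and the high above the middle by 0.50 (SE 0.14). For Fos these steps were 0.49 (SE 0.16) and 0.63 (SE 0.16), for Nr4a1 0.21 (SE 0.07) and 0.30 (SE 0.07), and for Egr1 0.17 (SE 0.07) and 0.23 (SE 0.07). With log2 Arc as a continuous covariate over all 39 arrays, 10 probesets passed and all rose with Arc, with 6 of them among the 7 above. The slopes per doubling of Arc were 1.26 (SE 0.19) for Homer1, 1.45 (SE 0.21) for Fos, 0.73 (SE 0.08) for Nr4a1, 0.54 (SE 0.08) for Egr1 and 0.58 (SE 0.10) for Sik1.

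Within the 15 middle arrays alone, a fit chosen after seeing the data, no relation to Arc was found. Of all probesets 0 passed the adjusted threshold in limma, and 1262, or 5.83%, had an unadjusted p under 0.05. The slope for Homer1 was 0.59 (SE 1.31), and those for Fos, Nr4a1, Egr1 and Sik1 were below 0, at −0.54 (SE 0.98), −0.15 (SE 0.34), −0.39 (SE 0.48) and −0.86 (SE 0.49). Arc covered a narrow range in these arrays, so that the standard errors were several times those over all arrays.

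In the contrast of high with low Arc arrays, the remaining members of the early response did not pass the adjusted threshold. Of 22 transcription factors on a list of activity-induced genes, 20 were on the array and 16 were tested. Of these, 3 passed the adjusted threshold, against 0.0277% of all probesets that passed as higher. At an unadjusted p of 0.05, 10 of the 16 were higher and 0 lower, against 2.26% and 2.02% of all probesets. The median log2 difference of the 16 was 0.29, against a median of all probesets of 0.00 (−9.3e-04 before rounding). After Fos, Nr4a1 and Egr1 the member with the smallest p was Junb, an AP-1 factor, with 112 to 213 in high and 89.7 to 177 in low Arc arrays and medians of 150.0 and 112. Its difference was 0.38 (SE 0.10), with a limma adjusted p of 0.676. In the fit on log2 Arc over all 39 arrays Junb did pass, with a slope of 0.56 (SE 0.11) and a limma adjusted p of 0.0228. The members ranged from −0.07 to 1.12, and 9 of the 16 had a higher mean in the high Arc arrays of all 4 groups, against 6.57% of all probesets.

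Among effectors, the proteins through which activity changes the cell, 33 of 40 listed genes were tested. Here 1 passed, Sik1, against 0.0277% of all probesets that passed as higher, and 7 were higher and 0 lower at an unadjusted p of 0.05, against 2.26% and 2.02%, with a median of 0.12. The list takes the brightest probeset of each gene, so that its Homer1 entry is the brightest one, at 0.02. Coq10b, a protein needed for coenzyme Q function, differed by 0.14 (SE 0.04), with an adjusted p of 0.930. Of 12 tested inhibitors of the MAP kinase pathway, 0 passed and 4 were higher at an unadjusted p of 0.05, against the same 2.26%, with a median of 0.06. Dusp1 had intensities of 154 to 379 in high and 128 to 246 in low Arc arrays, with medians of 263 and 159, and a difference of 0.55 (SE 0.12, adjusted p = 0.368 in limma). Dusp6 had 326 to 523 and 211 to 404, with medians of 378 and 311, and a difference of 0.31 (SE 0.08, adjusted p = 0.568). The classes overlapped for both. In the fit on log2 Arc over all 39 arrays both passed, with slopes of 0.80 (SE 0.14) for Dusp1 and 0.45 (SE 0.08) for Dusp6. Their limma adjusted p values in that fit were 0.00637 and 0.00454. Dusp7, a relative of Dusp6, differed by 0.13 (SE 0.04, adjusted p = 0.968).

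Glucocorticoid targets share members with the early response. Of 17 tested, 0 passed and 3 were higher at an unadjusted p of 0.05, against 2.26% of all probesets, with a median of 0.09. They were Dusp1, Ddit4, an inhibitor of mTOR signalling, at 0.28 (SE 0.07, limma adjusted p = 0.568), and Mt2A, a metallothionein, at 0.20 (SE 0.07). Among 14 heat shock entries, with Hspa1a repeated, 1 was higher at an unadjusted p of 0.05, the cochaperone Dnajb1 at 0.13 (SE 0.04). Of 18 clock genes it was Nr1d2, a repressor in the clock, at 0.08 (SE 0.04). With lists of this size, 1 gene is close to the 2.26% of all probesets. The median was −0.01 for heat shock genes and 0.05 for clock genes.

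Among the listed genes on which Arc protein acts and the listed pathways that regulate Arc, none was called. Egr1, which was called and binds the Arc promoter, is not on these lists. Of 24 entries for partners of Arc and AMPA receptor trafficking genes, with Cnih2 repeated, 0 passed, with a median of 0.00 (−0.0042). At an unadjusted p of 0.05, 0 were higher and 1 was lower, against 2.26% and 2.02% of all probesets. The one was Cacng2, the AMPA receptor auxiliary subunit stargazin, at −0.22 (SE 0.09). Of 10 AMPA and NMDA receptor subunits, 6 neurotrophins and receptors, and 28 members of the SRF, MEF2 and CREB pathways, 0 had an unadjusted p under 0.05. Their medians were 0.01, −0.02 and 0.00 (0.0020). Of 11 neuropeptides, 0 passed the limma threshold, and 1 was higher and 1 lower at an unadjusted p of 0.05, against the same shares. These were Vgf, also an activity-induced gene, at 0.18 (SE 0.06) and Pdyn, the dynorphin precursor, at −0.30 (SE 0.13).

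**Figure D4:**
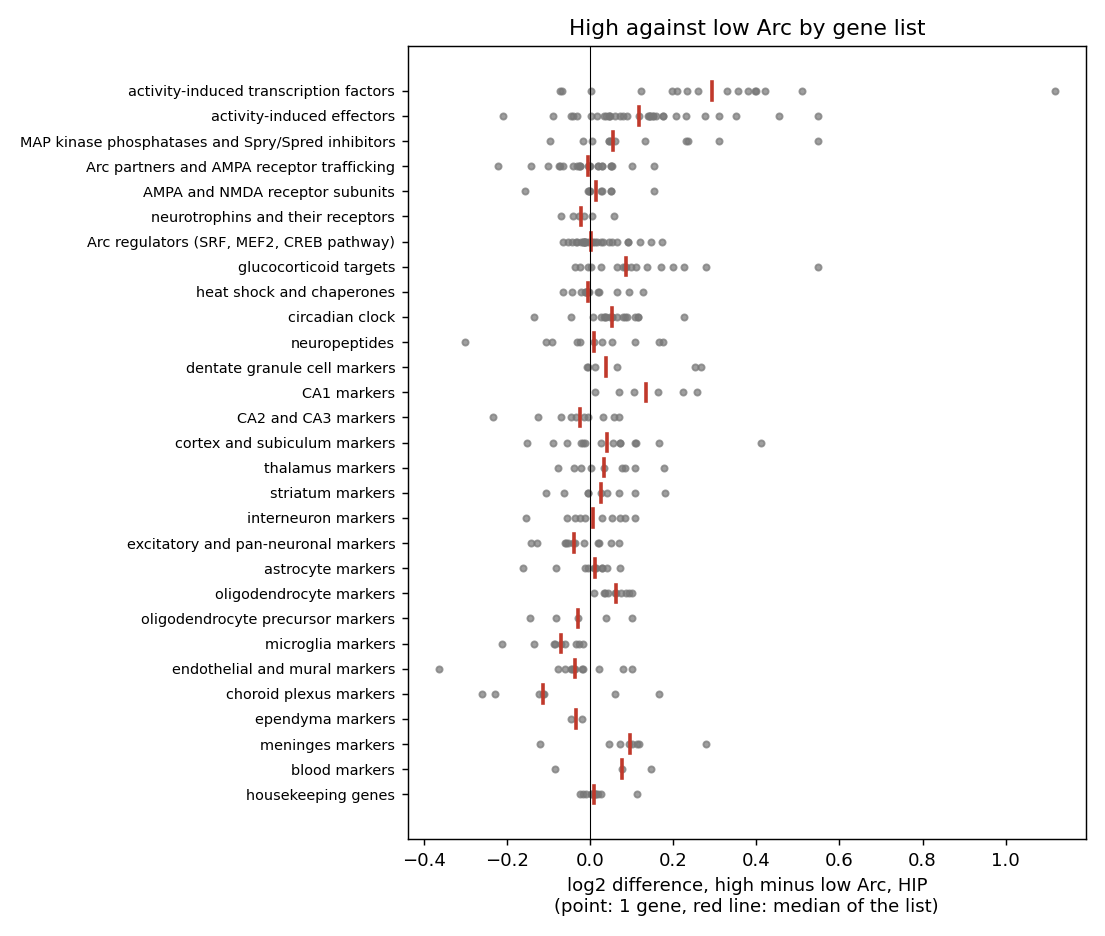
Log2 difference between high and low Arc arrays in hippocampus for the tested genes of 29 lists, with 1 point for each gene and a red line at the median. The activity-induced transcription factors have the highest median, 0.29, while most cell type lists centre near 0.

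Cell type and regional markers were read beside these results. Of all probesets 49.5% were above 0, and 2.26% were higher and 2.02% lower at an unadjusted p of 0.05. Of the CA1 markers 6 of 6 were above 0, with a median of 0.13, and 3 had an unadjusted p under 0.05. These were Pou3f1 at 0.22 (SE 0.09), Wfs1 at 0.16 (SE 0.08) and Ccn3 at 0.26 (SE 0.12). The summed CA1 markers ran from 2551 to 3569 in high and from 1973 to 3189 in low Arc arrays, so that the classes overlapped. Of 6 dentate granule cell markers, Tnfrsf25 at 0.27 (SE 0.06) and Dsp at 0.25 (SE 0.10) had an unadjusted p under 0.05, while Prox1 was at −0.01 (SE 0.06), with a list median of 0.04. In the frontal cortex arrays, ranked by their own Arc, Tnfrsf25 was at 0.44 (SE 0.12), Dsp at 0.08 (SE 0.15) and Prox1 at −0.03 (SE 0.06). Of 10 CA2 and CA3 markers, Grik4, a kainate receptor subunit, was at −0.23 (SE 0.08), with a list median of −0.02. None of these passed the limma threshold, and their part in the Arc results was not tested.

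Markers of neighbouring tissue had list medians near 0. Of 14 tested cortex and subiculum markers, Ccn2 was at 0.41 (SE 0.12) and Lamp5 at −0.15 (SE 0.06), with a list median of 0.04. Intensities summed over all 17 of these markers on the array were 3172 to 3825 in high and 2709 to 3913 in low Arc arrays. Thalamus and striatum markers had medians of 0.03 and 0.03, with 0 of 9 and 0 of 9 at an unadjusted p under 0.05. Of 12 neuronal markers, 0 had an unadjusted p under 0.05 and the median was −0.04.

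Among glia, all 9 microglia markers were below 0, with a median of −0.07, and P2ry12, a purinergic receptor of resting microglia, was at −0.21 (SE 0.07). Of 11 astrocyte markers, Aldh1l1 was at −0.16 (SE 0.07), with a median of 0.01, and of 12 endothelial and mural markers, Vwf, the von Willebrand factor, was at −0.36 (SE 0.15), with a median of −0.04. All 10 oligodendrocyte markers were above 0, with a median of 0.06. Of all these glial and vascular markers, 0 passed the limma threshold. Of 7 choroid plexus markers 0 had an unadjusted p under 0.05, with a median of −0.11. The 12 housekeeping genes had a median of 0.01, with Rpl13a, a ribosomal protein, at 0.11 (SE 0.04).

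No difference between the classes was detected in technical measures of the arrays. The 3′ control probeset exceeded the 5′ one on the log2 scale by 0.69 ± 0.10 (SD) in high and 0.68 ± 0.07 in low Arc arrays for Actb, and 0.83 ± 0.09 and 0.79 ± 0.05 for Gapdh. Exact permutation tests within the groups, two-sided and over 168000 assignments, gave p = 0.719 and p = 0.206, and over the 4 array measures adjusted p values of 0.840 and 0.825. The median intensity of the array was 59.6 ± 1.90 and 59.4 ± 1.45, with an exact p of 0.754, and the share of probesets above 30 was 70.7% in both classes, with an exact p of 0.840. With the Gapdh ratio as a covariate only Homer1 passed.

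The differences between the classes were set side by side in both lines and both cohorts. In limma 0 probesets passed for a difference by line and 0 for a difference by cohort, while 623 and 1145, or 2.88% and 5.29%, had an unadjusted p under 0.05. For Homer1 the class difference of FSL minus that of FRL was −0.04 (SE 0.24), and that of cohort 2 minus that of cohort 1 was 0.01 (SE 0.24). For Fos, in the same order, these values were −0.25 (SE 0.39) and −0.46 (SE 0.38), for Nr4a1 −0.14 (SE 0.18) and −0.01 (SE 0.19), for Egr1 0.05 (SE 0.15) and −0.03 (SE 0.15), and for Sik1 −0.10 (SE 0.15) and −0.11 (SE 0.15). Within 1 line or 1 cohort 0 probesets passed, with Homer1 at 1.05 (SE 0.15) in FRL, 1.01 (SE 0.18) in FSL, 1.03 (SE 0.15) in cohort 1 and 1.04 (SE 0.17) in cohort 2.

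The prefrontal/frontal cortex (P/FC) gave a second set of arrays for the same rule. The animals were the same as for HIP, but the labels do not match the arrays of an animal, so that the arrays were ranked by their own Arc. Arc was 385 to 1459 in the 12 high and 130 to 792 in the 12 low Arc arrays, with medians of 977 and 419. The classes were further apart in Arc than those of HIP, with medians of 442 and 283. Log2 differences of the 2 regions therefore do not refer to an equal change in Arc. Of 22369 probesets tested, 9 passed in limma, 0.0402%, and all were higher. Of the 7 HIP calls 2 also passed in P/FC, or 28.6%, and these are 22.2% of the 9 P/FC calls. They were Nr4a1, at 0.91 (SE 0.11, adjusted p = 4.3e-04), and the unnamed higher probeset, at 0.91 (SE 0.09). The other named HIP genes were all above 0 in P/FC without passing, with Fos at 1.26 (SE 0.27), Homer1 at 0.87 (SE 0.22), Egr1 at 0.40 (SE 0.09) and Sik1 at 0.40 (SE 0.14). The unnamed lower probeset was at −0.13 (SE 0.11).

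Named genes that passed in P/FC were also above 0 in HIP. Junb was at 0.77 (SE 0.14) in P/FC and Dusp1 at 0.84 (SE 0.14). Klf2, a Krüppel-like factor chosen after its values were seen, was at 1.32 (SE 0.23) in P/FC and in HIP at 0.56 (SE 0.11), with a limma adjusted p of 0.110. Its HIP intensities were 70.2 to 234 in high and 64.1 to 127 in low Arc arrays, with medians of 113 and 78.4. Of the 9 P/FC calls 9 were above 0 in HIP, against 49.5% of all HIP probesets. In HIP 8 of the 9 had an unadjusted p under 0.05, against 2.26% of all HIP probesets that were higher at this p. Of the 16 transcription factors 11 were higher in P/FC at an unadjusted p of 0.05, against 2.92% of all probesets, with a median of 0.45.

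**Figure D5:**
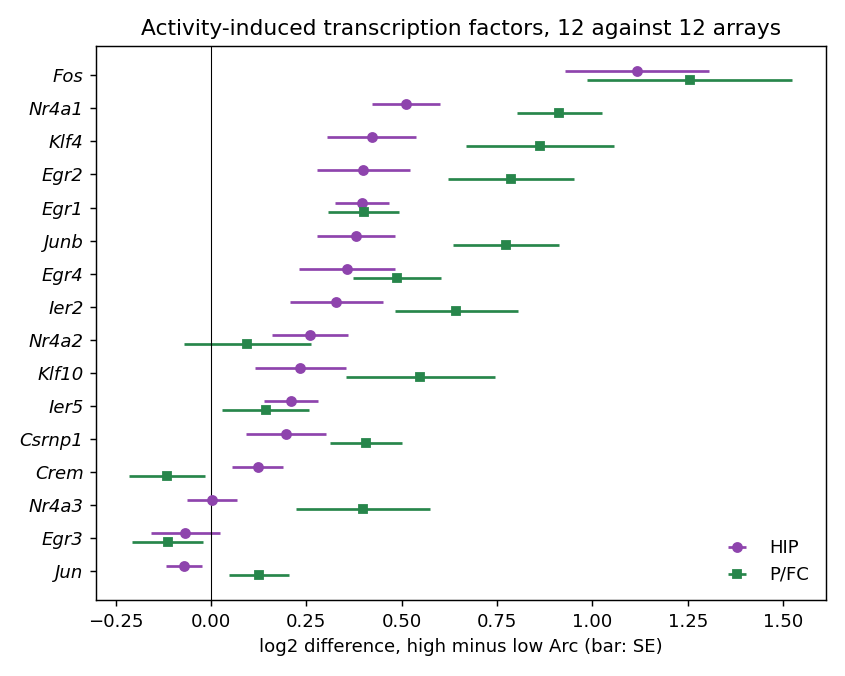
Log2 difference between high and low Arc arrays (point, with SE) for the 16 tested activity-induced transcription factors in HIP and in P/FC, 12 against 12 arrays in each region. Fos is furthest from 0 in both, at 1.12 and 1.26. The classes are further apart in Arc in P/FC than in HIP.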

How the data were processed

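Tissue from HIP and P/FC was hybridised to Affymetrix Rat Genome arrays. The deposited values are linear intensities, normalised by the authors in Rosetta Resolver 5.1, of 31099 probesets on 78 arrays. Before log2, the lowest value allowed was 1. The 57 control probesets were left out, and a probeset was tested if, following the study's methods, 50% or more of each line's arrays exceeded 30. High and low Arc arrays were compared in limma 3.58.1 (R 4.3.3) with line by cohort group as covariate, and p-values were adjusted by Benjamini and Hochberg over all tested probesets. The fit was tested on simulated data. Array measures were compared by exact permutation. Symbols came from the platform annotation, updated through RefSeq, with 20832 probesets of 1 symbol, 436 of several and 9780 of none. The number of arrays limits the precision.

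The arrays, the 29 gene lists and the tests were chosen with earlier results of these data known. The genes named are Arc, Egr1 and Fos, the probesets called, and up to 4 members of each list with the smallest p, with 1 probeset for each gene, the brightest. Outside this rule Prox1 and Bok are named to describe the tissue, and Klf2 was chosen after its values were seen. Alternatives covered the filter, an added constant, the normalisation, the split, covariates for RNA quality and neighbouring tissue, the sample number as a block, and leaving out each array and each group.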

Additional observations from a re-analysis of the deposited data

Results flagged for a closer look

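Among 33 probesets in the 3 groups of 8 to 10 arrays, 10 of 99 checks found 1 array far from the rest of its group, and chance gives about 1 in 20. Replicate 2 of FSL cohort 2, the array with the most Arc of its group, was highest for Egr1 at 1466 (next 836), Nr4a1 at 514 (next 337), Vgf at 570.4 (next 464) and Wfs1 at 939.7 (next 714). Without it the differences were 0.34 for Egr1, 0.47 for Nr4a1, 0.15 for Vgf and 0.13 for Wfs1, and Nr4a1 no longer passed, with a limma adjusted p of 0.0954. Replicate 4 of the same group, a low Arc array, was lowest for Sik1 at 62.5 (next 88.3), and without it Sik1 was at 0.44 with a limma adjusted p of 0.0798. Replicate 9 of FRL cohort 2, a high Arc array, was highest for Coq10b at 234 (next 199).

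The rest were middle arrays, outside the contrast. Replicate 3 of FRL cohort 2 was highest for the unnamed lower probeset at 55.3 (next 40.4). Replicate 2 of FRL cohort 2 was highest for Lamp5 at 847 (next 509.7). Replicate 1 of FSL cohort 1 was highest for Mt2A at 611 (next 519). Replicate 3 of FSL cohort 2 was highest for Aldh1l1 at 155 (next 125).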

How the results depend on the processing

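All 7 probesets kept their direction whenever 1 array or 1 group was left out, but only Homer1 passed the limma threshold in all 24 fits without 1 array, at log2 differences of 0.99 to 1.08. The count of 7 in HIP ranged from 1 to 8 in these fits. It was 1 without FRL cohort 1 replicate 1, 8, 9, 11 or 12, FRL cohort 2 replicate 6 or 10, FSL cohort 1 replicate 4 or 7, or FSL cohort 2 replicate 4. It was 2 without FRL cohort 1 replicate 4, FRL cohort 2 replicate 9 or FSL cohort 1 replicate 3, and 3 without FRL cohort 1 replicate 2, FRL cohort 2 replicate 1 or 4, FSL cohort 1 replicate 6, or FSL cohort 2 replicate 2 or 5. The count was 1 with no filter, plain analysis of variance, the Gapdh ratio, the cortex and subiculum score, or the choroid plexus and thalamus scores, and 3 with a filter of 100 or the Actb ratio. It was 0 for the top against the bottom 50% of arrays, with 1242 at an unadjusted p under 0.05. It was also 0 in cohort 1, cohort 2, FRL or FSL alone (762, 1940, 910 and 711 unadjusted) and within the middle arrays. Without 1 whole group it was 2 (FRL cohort 1), 1 (FRL cohort 2), 1 (FSL cohort 1) and 3 (FSL cohort 2). With the sample number as a replicate block it was 2, with a consensus correlation of 0.21. After group means were removed, same-numbered FRL and FSL arrays of a cohort in HIP correlated by −0.16 to 0.42, over 0.1 for 8 of 17 numbers. These arrays are from different rats, and the numbers were not taken to pair them. The P/FC count of 9 was 5 with no filter and 23 with the middle arrays as a class. Counts by line and by cohort stayed at 0 in each alternative run. The causes were not tested.

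Direction turned within the middle arrays (chosen after seeing the data) for Egr1 (−0.39), Sik1 (−0.86), Fos (−0.54), the unnamed lower probeset (0.68), the unnamed higher one (−0.39), Nr4a1 (−0.15), Junb (−0.25), Dusp1 (−0.62), Dnajb1 (−0.22), Vgf (−0.21), Tnfrsf25 (−0.37), Ccn3 (−1.15), Grik4 (0.56), Ccn2 (−2.35), Aldh1l1 (0.52), P2ry12 (0.37) and Klf2 (−0.067), all as slopes per doubling of Arc. Within the middle arrays 0 of all probesets passed the adjusted threshold in limma, and standard errors were wide over the narrow range of Arc. These turns are therefore a description of the estimates. In cohort 2 alone Ccn3 was at −0.017.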
